A study of Mus musculus with 21 samples.

Results

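Hearts of mouse embryos labelled null for Chd4, which encodes a chromatin remodeller, were compared with control hearts at embryonic day (E) 10.5. All genes listed in the E10.5 expression table entered if their mean over the 6 E10.5 libraries was at least 0.5 RPKM (reads per kilobase of gene and 1e6 library reads), which left 14100 of 24509 genes. The 3 control libraries came from Chd4 flox/flox hearts (called flox, the unrecombined floxed allele on both chromosomes). The 3 others came from Chd4 Δflox/Δflox hearts (called null, both floxed alleles recombined). All 6 were CD1 mice, and each library was made from 300 ng of polyadenylated RNA of cardiac tissue with a kit that marks the strand. The submitters count the 3 libraries of each group as biological replicates. These are 6 of the 21 samples of the series, which also holds 10 RNA libraries of the same 2 genotypes at E9.5 and CHD4 chromatin immunoprecipitation from wild-type hearts at E10.0. The recombinase line and the exons removed are not given in the sources used here, nor is how many embryos gave each library.

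CHD4 is the ATP-driven motor of the NuRD complex, which combines nucleosome sliding with histone deacetylation and is best known for keeping genes of other lineages silent. The heart at this stage is a looped tube of cardiac muscle lined by endocardium, covered by a spreading epicardium, and closely related in its contractile proteins to skeletal and smooth muscle. Fast skeletal muscle uses other genes for troponin, myosin and the calcium pump than cardiac muscle, so these transcripts can be told apart. Slow skeletal and cardiac transcripts were not separated here.

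Chd4 (chromosome 6, 125095980 to 125130591, mm10) stood at 67.2, 74.6 and 91.1 RPKM in flox 1 to 3 and at 48.2, 57.4 and 52.5 RPKM in null 1 to 3. Every null library was below every flox library, with a log2 difference of -0.55 (SE 0.161), but Chd4 did not pass the test over all genes (limma, adjusted p = 0.116). The count covers the whole gene, so any reads of a recombined allele or of unrecombined cells would be part of it. Their share was not tested. Libraries held 17.3 to 18.9 M reads, so that for a gene of 2 kb each RPKM stood for 34.7 to 37.8 reads. Within a group, pairs of libraries differed beyond counting noise (a chi-square over its degrees of freedom of 17.1 to 44.1 between flox pairs and 42.8 to 101.6 between null pairs). The pairs that hold null 3 differed most, at 86.01 and 101.6. By Xist against Ddx3y, flox 1, flox 3 and null 2 were female and flox 2, null 1 and null 3 male. Cardiac identity was clear in every library: the 28 cardiac sarcomere genes summed to 11759 RPKM or more in each.

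Of the 14100 genes, 292 changed (2.07%; limma on log2(RPKM + 0.5), two-sided, Benjamini-Hochberg adjusted p under 0.05). Of these, 249 genes rose (1.77%) and 43 fell (0.305%). The balance was not the same below that threshold: the unadjusted p was under 0.05 for 1638 genes in the higher direction (11.6%) and 1588 in the lower (11.3%). All null libraries were above all flox libraries for 1955 genes (13.9%) and below for 2459 (17.4%). A change of 2-fold or more was reached by 210 of the rises and 29 of the falls. Genes that rose were low in the control, with a median of 2.34 RPKM in flox and 8.23 RPKM in null, where all tested genes had a flox median of 8.56 RPKM. Genes that fell had a median of 10.6 RPKM in flox and 4.44 RPKM in null. The count moved with single libraries: it was 356 without null 1, 63 without flox 1, 92 without flox 2, 62 without flox 3, 139 without null 2 and 199 without null 3, and 48 genes (42 that rose and 6 that fell) were called in all 6 fits that left 1 library out. Of 53 called genes that the rule for named genes returned, 29 were also called with erythroid gene level as a covariate, 29 with the sex of the library, 35 with the level of foregut and liver genes, and 7 with the level of epicardial genes, among them Tnnc2, Tnnt3, Atp2a1, Myh11, Vil1 and Tcfl5. The epicardial list holds 3 called keratins and its mean log2 level was higher in every null library (4.1 to 4.21) than in every flox library (3.83 to 4.09), so that covariate cannot be told apart from genotype.

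**Figure D1:**
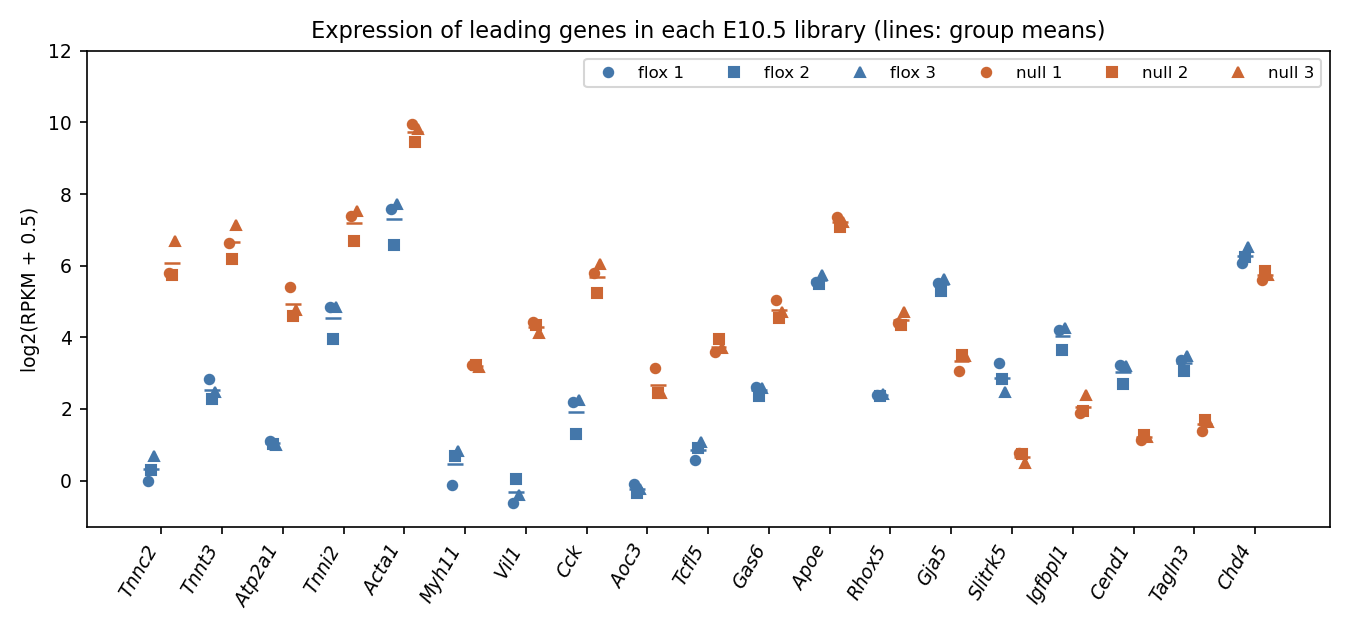
Expression of leading genes in the 6 E10.5 libraries, as log2(RPKM + 0.5); blue symbols are flox libraries, orange symbols null libraries, and lines the group means. From Tnnc2 to Rhox5 every null library lies above every flox library, and from Gja5 to Tagln3 every null library lies below, as it does for Chd4, which did not pass the test.

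The changes were led by fast skeletal muscle genes, and the sequences before 3 of their starts are shown because these genes moved together while the peaks of CHD4 nearest to them differed. Each is the 250 bases before an annotated start, from RefSeq (GRCm38.p6, the assembly of mm10), on the minus strand of the genome and written 5′ to 3′. Capitals mark the E-box, the letters CANNTG, which read as the same pattern on both strands and are the kind of site that myogenic helix-loop-helix factors bind.
Tnnc2, chr2:164779735-164779984: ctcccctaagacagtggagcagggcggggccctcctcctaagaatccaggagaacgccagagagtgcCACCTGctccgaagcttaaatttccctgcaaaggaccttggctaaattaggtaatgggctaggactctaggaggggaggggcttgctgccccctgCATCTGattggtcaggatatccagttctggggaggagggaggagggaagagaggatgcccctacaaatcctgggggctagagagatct
Atp2a1, chr7:126463074-126463323: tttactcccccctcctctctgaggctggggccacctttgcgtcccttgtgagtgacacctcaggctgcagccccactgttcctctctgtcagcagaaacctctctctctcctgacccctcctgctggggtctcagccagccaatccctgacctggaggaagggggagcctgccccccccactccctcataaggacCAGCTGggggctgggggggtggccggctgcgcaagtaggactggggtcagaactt
Acta1, chr8:123894776-123895025: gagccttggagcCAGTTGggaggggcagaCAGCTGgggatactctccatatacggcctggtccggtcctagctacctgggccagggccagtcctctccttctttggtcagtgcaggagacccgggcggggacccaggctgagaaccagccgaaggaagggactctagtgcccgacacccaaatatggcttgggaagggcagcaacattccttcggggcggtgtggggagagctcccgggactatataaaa
Tnnc2 and Acta1 held 2 E-boxes each and Atp2a1 held 1. Of all 32851 starts listed, 66.2% held at least 1 in the same window, so these matches do not set the genes apart. The nearest CHD4 peak shared by all 3 wild-type lists lay 4586 bp from the Tnnc2 start, 12036 bp from the Atp2a1 start and 3101 bp from the Acta1 start, and none overlapped the printed bases.

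Transcripts of the fast skeletal troponin complex, the fast calcium pump and skeletal actin were higher in all 3 null libraries. Tnnc2 (chromosome 2, 164777161 to 164779734), troponin C of fast skeletal fibres, stood at 0.486, 0.729 and 1.09 RPKM in flox and 55.1, 53.2 and 104 RPKM in null. It was near the detection limit in flox (6, 9 and 13 reads) and all 3 null libraries were above it (log2 change 5.76, SE 0.288, adjusted p = 0.000171). Tnnt3 (chromosome 7, 142498771 to 142516213), fast skeletal troponin T, stood at 6.61, 4.34 and 5.08 RPKM in flox and 99.1, 72.3 and 140.1 RPKM in null (log2 change 4.13, SE 0.252, adjusted p = 0.000357). Tnni2 (chromosome 7, 142441816 to 142444410), fast skeletal troponin I, was already present in flox at 28.2, 15 and 28.2 RPKM and reached 166, 103 and 185 RPKM in null (log2 change 2.66, SE 0.3, adjusted p = 0.00601). For all 3 troponin genes null 3 was highest and null 2 lowest of the null libraries, and the groups were far apart.

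Atp2a1 (chromosome 7, 126445858 to 126463103), the calcium pump of fast skeletal muscle, rose from 1.66, 1.54 and 1.5 RPKM to 41.5, 23.7 and 26.6 RPKM (log2 change 3.87, SE 0.217, adjusted p = 0.000288), with null 1 highest. Acta1 (chromosome 8, 123891758 to 123894775), skeletal α-actin, was the most abundant of the set and rose from 189.9, 94.5 and 211 RPKM to 989, 696 and 894 RPKM (log2 change 2.44, SE 0.311, adjusted p = 0.01), with flox 2 lowest of the control. Klhl41, a stabiliser of thin filament proteins, moved the other way and fell from 13.3, 10.3 and 13.5 RPKM to 4.47, 4.27 and 4.69 RPKM (log2 change -1.36, SE 0.161, adjusted p = 0.00739). Its call ended without flox 1 (adjusted p = 0.0529) or flox 3 (0.0552). The groups were fully separate for each of these 6 genes.

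The rest of the skeletal muscle program was not called. Of 24 skeletal muscle contractile genes 17 were tested, of which 5 rose, 1 fell and 11 did not pass, with a median log2 change of 0.50 where the median over all genes was -0.03. The null libraries all exceeded the flox libraries for 7 of the 17 (13.9% of all tested genes) and were all below them for 1 (17.4% of all tested genes). Mylpf, the fast regulatory myosin light chain, and Ckm, muscle creatine kinase, were the 2 others above, at log2 differences of 0.65 (adjusted p = 0.207) and 1.07 (adjusted p = 0.101), and both were chosen after their values were seen. The 7 members under 0.5 RPKM and not tested included the fast and embryonic skeletal myosin heavy chains Myh1, Myh2, Myh3, Myh4 and Myh8.

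Transcription factors that specify skeletal muscle had no call. Of 13 lineage regulators 12 were listed and 4 tested; limma called 0 of them, as did voom on the reads, and at an unadjusted p under 0.05 0 were higher and 1 was lower. Summed, the 12 genes gave 3.87, 13.6 and 13.2 RPKM in flox and 8.4, 3.78 and 1.54 RPKM in null, with overlapping groups. These sums are low, and their relation to the contractile genes was not tested. Myod1 held 0, 0.75 and 0.312 RPKM in flox and 0.21, 0.0858 and 0 RPKM in null, and Pax7 was at or under 0.026 RPKM in every library. The 5 rises of contractile genes were called in each of the 6 fits that left 1 library out. They were also called with the level of erythroid genes, of foregut and liver genes or library sex as a covariate. With the level of epicardial genes in the fit 3 of the 5 were called, and Tnni2 and Acta1 were not. In bulk tissue more cells of a type and more RNA per cell cannot be told apart, here or in any group below.

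Of 14 contractile genes of smooth muscle, all tested, 3 rose, 0 fell and 11 did not pass (median log2 change 0.40), and every null library was above every flox library for 7 of them (13.9% of all tested genes). At an unadjusted p under 0.05 limma put 6 higher (11.6% of all tested genes) and 0 lower (11.3%), and voom also called 3 higher and 0 lower. Myh11 (chromosome 16, 14194527 to 14292188), the myosin heavy chain of smooth muscle, rose from 0.413, 1.11 and 1.28 RPKM to 8.77, 8.8 and 8.53 RPKM (log2 change 2.74, SE 0.26, adjusted p = 0.00306), and the 3 null values lay within 0.27 RPKM of each other. Tpm2, β-tropomyosin, rose from 18.8, 20.7 and 27.8 RPKM to 48.9, 42.9 and 56.3 RPKM (log2 change 1.13, SE 0.185, adjusted p = 0.0251), and Actg2, enteric γ-actin, from 1.49, 3.49 and 3.71 RPKM to 7.77, 11.3 and 8.62 RPKM (log2 change 1.58, SE 0.3, adjusted p = 0.0388). The call of Tpm2 ended without flox 1 (adjusted p = 0.116), flox 2 (0.103), null 2 (0.0542) or null 3 (0.0553). The call of Actg2 ended without flox 1 (adjusted p = 0.083), flox 2 (0.0916), flox 3 (0.0794), null 2 (0.0897) or null 3 (0.0815), and with the erythroid level, the foregut and liver level or the sex in the fit 1 gene of the list, Myh11, was called. Acta2, the vascular smooth muscle actin that early cardiac muscle also makes, stood at 654, 365 and 745 RPKM in flox and 963, 847 and 981 RPKM in null without overlap and did not pass (log2 difference 0.72, SE 0.282, adjusted p = 0.184). Myocd, the coactivator of smooth and cardiac muscle genes, had a log2 difference of -0.45 (adjusted p = 0.389; chosen after its value was seen).

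The sequence before the start of Tpm2 is shown because, unlike those of the skeletal genes, it lay wholly within a CHD4 peak of wild-type hearts (peak chr4:43522980-43523812, 833 bp). All 250 bases are in the peak and therefore in capitals, written 5′ to 3′ on the minus strand (RefSeq, GRCm38.p6).
Tpm2, chr4:43523555-43523804: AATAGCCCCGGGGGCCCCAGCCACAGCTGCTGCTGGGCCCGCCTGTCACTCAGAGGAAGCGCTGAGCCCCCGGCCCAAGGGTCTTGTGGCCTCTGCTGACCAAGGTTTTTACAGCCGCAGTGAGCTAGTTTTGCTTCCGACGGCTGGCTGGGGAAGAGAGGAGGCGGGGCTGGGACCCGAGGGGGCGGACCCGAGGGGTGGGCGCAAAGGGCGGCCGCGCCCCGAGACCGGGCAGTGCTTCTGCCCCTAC

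Several of the largest rises were in genes with no single known place in the heart. Vil1 (chromosome 1, 74409384 to 74435560), villin, which bundles actin in the microvilli of gut and kidney epithelium, rose from 0.144, 0.538 and 0.261 RPKM to 20.9, 19.6 and 16.7 RPKM (log2 change 4.61, SE 0.217, adjusted p = 0.000171). Cck (chromosome 9, 121489824 to 121495694), the peptide hormone cholecystokinin of gut and brain, rose from 4.05, 1.96 and 4.27 RPKM to 55.4, 36.9 and 65.6 RPKM (log2 change 3.78, SE 0.3, adjusted p = 0.00146). The groups were fully separate for both genes.

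Aoc3, a vascular amine oxidase, rose from 0.358 ± 0.0774 to 6.05 ± 1.92 RPKM (mean ± SD over 3 libraries; log2 change 2.90), and Tcfl5, a helix-loop-helix factor best known from spermatocytes, from 1.32 ± 0.312 to 13 ± 1.74 RPKM (2.89). Sypl2, a membrane protein of the skeletal muscle triad, rose from 0.497 ± 0.141 to 5.31 ± 0.285 RPKM (2.55). Lncenc1, a long noncoding RNA of embryonic stem cells, rose from 0.175 ± 0.0406 to 4.16 ± 0.975 RPKM (2.77), and Rhox5, a homeobox gene of the X chromosome known from germline and placenta, from 4.74 ± 0.0545 to 22 ± 3.32 RPKM (2.09). Their limma adjusted p ran from 0.000604 for Tcfl5 to 0.00149 for Aoc3 and Lncenc1. All 5, with Vil1 and Cck, were called in each fit that left 1 library out.

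Apoe, the apolipoprotein E gene, rose from 46.4, 44.4 and 52.4 RPKM to 162, 136 and 149 RPKM (log2 change 1.63, SE 0.145, adjusted p = 0.00204), and its neighbour Apoc1 from 1.01, 1.71 and 1.88 RPKM to 9.46, 16.7 and 16.4 RPKM (log2 change 2.84, SE 0.27, adjusted p = 0.00306). Gas6, the ligand of the TAM receptor kinases, rose from 5.61, 4.63 and 5.55 RPKM to 32.2, 22.8 and 25.5 RPKM (log2 change 2.23, SE 0.172, adjusted p = 0.00127). Igfbp2, an insulin-like growth factor binding protein, rose from 32.3, 32.4 and 48.9 RPKM to 224, 129.8 and 146 RPKM (log2 change 2.11, SE 0.249, adjusted p = 0.00739). Apoe, Gas6 and Igfbp2 were chosen after their values were seen, and all 4 calls held in each fit that left 1 library out. Apoe and Apoc1 are also liver transcripts, and the foregut and liver genes summed to 7.74, 197 and 23.4 RPKM in flox and 33.5, 1444 and 1044 RPKM in null. With the level of those genes in the fit the log2 change of Apoc1 was 2.31 (limma, adjusted p = 0.0115), and the Apoe value of that fit is not reported here. The part of liver RNA in either rise was not tested.

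Cardiac muscle genes had few calls. Of 27 tested cardiac sarcomere genes limma called 0 and voom 1 higher, while the unadjusted p was under 0.05 for 1 in the higher and 4 in the lower direction, against 11.6% and 11.3% of all tested genes (median log2 change 0.06). Actc1, cardiac α-actin and the most abundant sarcomere transcript, stood at 5621, 2911 and 6449 RPKM in flox and 5709, 4865 and 5968 RPKM in null, with overlapping groups (log2 difference 0.22, adjusted p = 0.754; chosen after its values were seen). Smpx and Myoz2, small proteins of the costamere and Z-disc, were lower in every null library, at log2 differences of -0.93 (adjusted p = 0.1) and -0.63 (adjusted p = 0.0985). For 22 genes of calcium handling and ion channels limma and voom called 0, with an unadjusted p under 0.05 for 2 in the higher and 5 in the lower direction (median -0.01). Among the latter was Pln, the calcium pump inhibitor phospholamban, at 256, 168 and 201 RPKM in flox and 125, 107 and 99 RPKM in null (log2 difference -0.90, SE 0.193, adjusted p = 0.0587).

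Cardiac transcription factors had no call. Of 24 genes limma and voom called 0; at an unadjusted p under 0.05 0 were higher and 4 were lower (11.3% of all tested genes), the median log2 change was -0.25, and every null library was below every flox library for 4 (17.4% of all tested genes), which is near the share over all genes. Hopx, a homeodomain cofactor of cardiac progenitors, stood at 101, 53.6 and 92.6 RPKM in flox and 43, 33.3 and 40.4 RPKM in null (log2 difference -1.03, SE 0.245, adjusted p = 0.0755). Nkx2-5, the homeodomain factor of the cardiac lineage, stood at 48.1, 23.6 and 43.7 RPKM in flox and 24.6, 22.2 and 25.2 RPKM in null, and flox 2 lay among the null libraries (log2 difference -0.61, SE 0.255, adjusted p = 0.205). Flox 2 was also low in sarcomere genes (a sum over the list of 11759 RPKM against 19630.4 and 20749 RPKM in flox 1 and flox 3). Gata4 and Tbx5, both chosen after their values were seen, had log2 differences of 0.20 and -0.04.

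Genes that set chamber identity split into 1 rise and 1 fall among 22 (median -0.23; every null library above for 2 and below for 5, against 13.9% and 17.4% of all tested genes). Gja5 (chromosome 3, 97032402 to 97053634), connexin 40 of the trabecular and atrial muscle, fell from 45.2, 38.6 and 48.9 RPKM to 7.79, 10.9 and 10.6 RPKM (log2 change -2.13, SE 0.174, adjusted p = 0.00149), a difference larger than the spread within either group and called in each fit that left 1 library out. Nppb, the natriuretic peptide BNP, which rises with wall stress, went from 194, 97.7 and 146 RPKM to 468, 368 and 347 RPKM (log2 change 1.47, SE 0.259, adjusted p = 0.0303), and the call ended without flox 2 (adjusted p = 0.0732), flox 3 (0.108), null 1 (0.0575), null 2 (0.069) or null 3 (0.0571). Its sister peptide Nppa stood at 827, 481 and 818 RPKM in flox and 1301, 756 and 1208 RPKM in null, with overlap (log2 difference 0.62, SE 0.303, adjusted p = 0.259; chosen after its values were seen). The 250 bases before the Nppb start are shown as the second example of a gene that rose with a CHD4 peak over its promoter (peak chr4:147985203-147986104, 902 bp). They lie wholly in the peak, hence the capitals, on the plus strand (RefSeq, GRCm38.p6). Such a peak does not set Nppb apart, since 54.9% of genes not called had a shared peak within 1 kb of either end, against 32.8% of genes that rose.
Nppb, chr4:147985650-147985899: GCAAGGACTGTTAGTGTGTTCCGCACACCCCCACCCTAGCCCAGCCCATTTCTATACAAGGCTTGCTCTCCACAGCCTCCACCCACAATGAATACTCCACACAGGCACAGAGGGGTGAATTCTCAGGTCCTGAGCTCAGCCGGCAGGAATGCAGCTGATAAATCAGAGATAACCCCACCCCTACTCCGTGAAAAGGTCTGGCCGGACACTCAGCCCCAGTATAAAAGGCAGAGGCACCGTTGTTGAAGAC

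Outflow tract and second heart field genes had no call in limma or voom among 16 (median -0.38). At an unadjusted p under 0.05 limma put 0 higher and 4 lower, against 11.6% and 11.3% of all tested genes. Wnt5a, a signal of outflow tract progenitors, stood at 26.1, 22.9 and 18.9 RPKM in flox and 12.8, 13.5 and 9.16 RPKM in null (log2 difference -0.92, SE 0.194, adjusted p = 0.0566). Among 21 cushion mesenchyme and fibroblast genes 1 rose and 1 fell (median -0.10). Col1a1, the collagen I chain, rose from 18.9, 27.5 and 23.8 RPKM to 52.5, 47 and 50.2 RPKM (log2 change 1.09, SE 0.166, adjusted p = 0.0192), and the call ended without flox 1 (adjusted p = 0.0885), flox 3 (0.0795) or null 2 (0.0544). Alx4, a homeodomain factor of limb and facial mesenchyme, fell from 4.99, 4.17 and 1.69 RPKM to 0.32, 0.387 and 0.465 RPKM (log2 change -2.11, SE 0.341, adjusted p = 0.0246), and the call ended without flox 1 (adjusted p = 0.098), flox 2 (0.104), null 2 (0.0618) or null 3 (0.0555). Neither limma nor voom called any (0) of 19 genes of endothelium and endocardium (median -0.11). At an unadjusted p under 0.05, 1 was higher and 2 were lower, against 11.6% and 11.3% of all tested genes.

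Simple-epithelial keratins rose, and other genes of the epicardium were not called. Krt8 stood at 6.78, 4.27 and 6.58 RPKM in flox and 20.4, 17.4 and 19.1 RPKM in null (log2 change 1.63, SE 0.193, adjusted p = 0.00739). Its partner Krt18 rose from 38.9, 28.7 and 44.7 RPKM to 122, 76.6 and 91.7 RPKM (log2 change 1.35, SE 0.223, adjusted p = 0.0254), and Krt19 from 27.3, 16.9 and 26.7 RPKM to 176, 85.9 and 101 RPKM (log2 change 2.29, SE 0.291, adjusted p = 0.01), with null 1 highest for all 3. The call of Krt18 ended without flox 1 (adjusted p = 0.099), flox 2 (0.0872), flox 3 (0.069) or null 3 (0.0571), and those of Krt8 and Krt19 held in each such fit. These were the 3 rises among 16 tested epicardial and proepicardial genes, with 0 falls (median -0.04). In limma 1.77% of all tested genes rose and 0.305% fell. Wt1, the transcription factor that marks the epicardium, stood at 26.4, 23.3 and 20.7 RPKM in flox and 18.3, 21.7 and 23.6 RPKM in null, and Upk3b, a surface protein of mesothelium, at 73.5, 70.8 and 72.7 RPKM in flox and 66.5, 81.3 and 71.6 RPKM in null (both chosen after their values were seen). The groups overlapped for both genes (log2 differences -0.15 and 0.01). Without the keratins the other 13 genes summed to 269 to 318 RPKM in flox and 227 to 292 RPKM in null.

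Falls were fewer, and genes best known from neurons were among them. Of 21 neuronal and neural crest genes 14 were tested: 3 fell, 0 rose and 11 did not pass (median -0.39), in limma and in voom. Over all tested genes 0.305% fell and 1.77% rose in limma. The list was chosen with earlier results of these data known, and its count is not taken as support for anything. Slitrk5 (chromosome 14, 111675115 to 111683144), a synaptic adhesion protein, fell from 9.29, 6.65 and 5.03 RPKM to 1.21, 1.16 and 0.914 RPKM (log2 change -2.20, SE 0.236, adjusted p = 0.00492). Cend1 (chromosome 7, 141426446 to 141429562), which promotes cell cycle exit of neuronal precursors, fell from 8.8, 5.97 and 8.61 RPKM to 1.71, 1.92 and 1.83 RPKM (log2 change -1.82, SE 0.192, adjusted p = 0.00451). Tagln3 (chromosome 16, 45711230 to 45724531), the neuronal member of the transgelin family, fell from 9.74, 7.76 and 10.6 RPKM to 2.11, 2.74 and 2.61 RPKM (log2 change -1.72, SE 0.182, adjusted p = 0.00451). The 3 calls held in each fit that left 1 library out. Without the 3 libraries high in liver genes, which leaves 1 null library, the log2 change of Slitrk5 at E10.5 was -2.10. General neuronal markers were not called: Tubb3 and Snap25, chosen after their values were seen, had log2 differences of -0.03 and -0.06. Igfbpl1 (chromosome 4, 45809507 to 45826827), a secreted binding protein of the developing forebrain, fell from 17.9, 12 and 18.7 RPKM to 3.18, 3.34 and 4.7 RPKM (log2 change -1.97, SE 0.22, adjusted p = 0.00574).

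The bases before the Cend1 start are shown because a peak of CHD4 in wild-type hearts covered the end next to the start (peak chr7:141429500-141429615, 116 bp). Capitals mark the 53 bases inside the peak, on the minus strand, 5′ to 3′ (RefSeq, GRCm38.p6). Within 1 kb of either gene end a shared peak lay near 31.7% of genes that fell and 54.9% of genes not called, so it does not set Cend1 apart.
Cend1, chr7:141429563-141429812: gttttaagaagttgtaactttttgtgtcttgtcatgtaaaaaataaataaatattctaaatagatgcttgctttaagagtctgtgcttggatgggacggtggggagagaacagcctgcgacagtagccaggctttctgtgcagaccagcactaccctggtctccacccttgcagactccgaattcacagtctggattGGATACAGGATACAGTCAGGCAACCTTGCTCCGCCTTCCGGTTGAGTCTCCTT

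A few genes of the low-oxygen response and of glycolysis rose, and most had higher values in null. Of 32 such genes, all tested, 4 rose, 0 fell and 28 did not pass, but the null libraries all exceeded the flox libraries for 26 of them (13.9% of all tested genes) and were all below for 0 (17.4%), and the median log2 change was 0.96. At an unadjusted p under 0.05 limma put 26 higher (11.6% of all tested genes) and 0 lower, and the authors' deposited table lists 22 of them as higher in null. Ndufa4l2 (chromosome 10, 127509274 to 127517154), a mitochondrial protein induced by the hypoxia factor HIF, rose from 0.579, 0.81 and 1.08 RPKM to 47.7, 13.1 and 14.9 RPKM (log2 change 4.05, SE 0.441, adjusted p = 0.00503). Pfkl, phosphofructokinase of the liver type and a control point of glycolysis, rose from 42.1, 39.1 and 48.2 RPKM to 97.1, 79.5 and 86.1 RPKM (log2 change 1.01, SE 0.149, adjusted p = 0.0172). Ndrg1, a stress gene induced by HIF, rose from 2.46, 2.76 and 2.05 RPKM to 65.6, 17.9 and 12.3 RPKM (log2 change 3.10, SE 0.521, adjusted p = 0.0272), and P4ha2, a prolyl hydroxylase of collagen, from 12.6, 12 and 11.9 RPKM to 66.1, 33.9 and 27.4 RPKM (log2 change 1.66, SE 0.29, adjusted p = 0.0297). Ndufa4l2 was called in each fit that left 1 library out. The call of Pfkl ended without flox 1 (adjusted p = 0.0975), flox 2 (0.0797) or flox 3 (0.0634), that of Ndrg1 without flox 1 (adjusted p = 0.099), flox 2 (0.089), flox 3 (0.103) or null 2 (0.0592) and that of P4ha2 without flox 1 (adjusted p = 0.114), flox 2 (0.107), flox 3 (0.111) or null 2 (0.0618).

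Null 1 stood apart in this group. The 32 genes summed to 1622, 1316 and 1722 RPKM in flox and to 3789, 2382 and 2319 RPKM in null, so null 1 led and null 2 and null 3 were also above all of flox. Egln3, the oxygen-sensing hydroxylase that is itself a HIF target, stood at 5.37, 5.45 and 4.51 RPKM in flox and 71.9, 19.8 and 12.2 RPKM in null, and did not pass (adjusted p = 0.0768). Vegfa, the angiogenic growth factor, stood at 15.3, 21.9 and 18.2 RPKM in flox and 144, 54.3 and 31.6 RPKM in null (log2 difference 1.75, SE 0.467, adjusted p = 0.0976). For Slc2a1, the main glucose transporter of the embryo, the values were 217, 142 and 176 RPKM in flox and 549.5, 266 and 244 RPKM in null (log2 difference 0.91, SE 0.317, adjusted p = 0.153). Ldha, lactate dehydrogenase A, stood at 256, 202 and 271 RPKM in flox and 445, 369.8 and 369 RPKM in null (log2 difference 0.71, SE 0.183, adjusted p = 0.0911). Without null 1, 7 of the 32 genes rose, without null 3 it was 9, and with the erythroid level in the fit 1. Eno1 and Gapdh have processed copies in the genome, so their values here are uncertain.

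**Figure D2:**
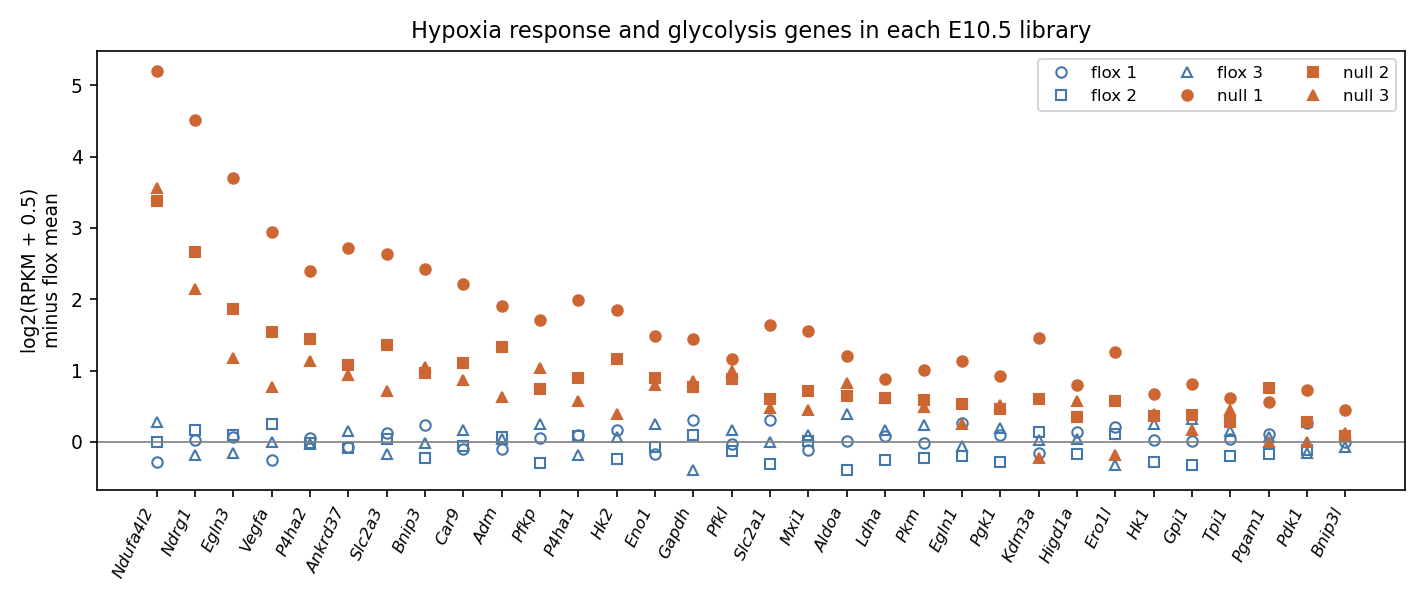
The 32 hypoxia response and glycolysis genes, ordered by their change, as log2(RPKM + 0.5) minus the flox mean of the gene; open blue symbols are flox libraries and filled orange symbols null libraries. Null 1 (circles) lies highest for most genes, and for 26 of the 32 all 3 null libraries lie above all 3 flox libraries.

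The promoter table held 2 of the 4 risers of this group, P4ha2 and Pfkl, and both are shown for the letters ACGTG, the core of the hypoxia response element, in capitals (searched on both strands; P4ha2 on the plus and Pfkl on the minus strand, 5′ to 3′, RefSeq, GRCm38.p6).
P4ha2, chr11:54100674-54100923: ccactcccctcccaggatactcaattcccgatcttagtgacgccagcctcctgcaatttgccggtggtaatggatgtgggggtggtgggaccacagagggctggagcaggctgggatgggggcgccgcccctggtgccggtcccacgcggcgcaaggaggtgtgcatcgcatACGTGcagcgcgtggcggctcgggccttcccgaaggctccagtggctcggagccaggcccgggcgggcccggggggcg
Pfkl, chr10:78009808-78010057: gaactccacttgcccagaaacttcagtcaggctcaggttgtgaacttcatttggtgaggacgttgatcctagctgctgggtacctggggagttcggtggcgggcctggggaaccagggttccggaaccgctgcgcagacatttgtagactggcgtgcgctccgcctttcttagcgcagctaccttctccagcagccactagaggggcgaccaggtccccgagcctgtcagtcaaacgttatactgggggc
P4ha2 held 1 match and Pfkl 0, so Pfkl has no capitals, and 16.6% of the 32851 starts in the table held at least 1. Ndufa4l2 and Ndrg1 have no entry in the table.

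Mitochondrial genes had no call. Of 23 genes of the respiratory chain and ATP synthase limma and voom called 0 (median -0.17). At an unadjusted p under 0.05, 0 were higher and 2 lower, against 11.6% and 11.3% of all tested genes. Among 22 tested genes of fatty acid oxidation and the TCA cycle limma and voom also called 0 (unadjusted p under 0.05 for 3 in the higher and 0 in the lower direction, median -0.02). Cpt1a, the liver-type gate of fatty acid entry into mitochondria, was nearest at 5.98, 8.78 and 7.93 RPKM in flox and 14.8, 12.4 and 15.9 RPKM in null (log2 difference 0.89, SE 0.183, adjusted p = 0.051).

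Stress genes held a few rises. Of 17 tested immediate early and heat shock genes 2 rose and 0 fell, and voom called 1 higher (median 0.38). In limma 1.77% of all tested genes rose and 0.305% fell. Hmox1, haem oxygenase, rose from 16.5, 17.8 and 17.5 RPKM to 58.5, 45.1 and 38.3 RPKM (log2 change 1.41, SE 0.174, adjusted p = 0.00923), and its call ended without flox 1 (adjusted p = 0.0534) or flox 3 (0.0552). Ier3, an early response gene, rose from 5.52, 4.44 and 4.24 RPKM to 93.5, 21.9 and 22.9 RPKM (log2 change 2.82, SE 0.493, adjusted p = 0.0297), with null 1 far above the others, and its call ended without flox 1 (adjusted p = 0.099), flox 2 (0.107), flox 3 (0.111) or null 2 (0.0542). Among 18 tested p53 targets and apoptosis genes 2 rose and 0 fell (median 0.26). Cdkn1a, the cyclin-dependent kinase inhibitor p21, went from 8.86, 6.56 and 9.74 RPKM to 34.7, 16.6 and 20.5 RPKM (log2 change 1.41, SE 0.272, adjusted p = 0.0414), and its call ended without flox 1 (adjusted p = 0.142), flox 2 (0.141), flox 3 (0.104), null 2 (0.0542) or null 3 (0.076). The apoptosis genes Bax and Bbc3 were higher in every null library, at log2 differences of 0.42 (adjusted p = 0.186) and 0.78 (adjusted p = 0.195). The list did not move in 1 direction: 6 of the 18 genes had all null values above all flox values, and 2 had all below. Of all tested genes, 13.9% lay wholly above and 17.4% wholly below. The lowest log2 difference in the list was -0.47. For the unfolded protein and integrated stress response limma and voom called 0 of 19 (median 0.27). At an unadjusted p under 0.05 limma put 4 higher and 0 lower, against 11.6% and 11.3% of all tested genes.

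Cell cycle genes had no call. Of 25, limma and voom called 0 (median -0.07). At an unadjusted p under 0.05, 0 were higher and 3 lower, against 11.6% and 11.3% of all tested genes. Ccnd2, cyclin D2, stood at 167, 123 and 155 RPKM in flox and 69.3, 101 and 58.2 RPKM in null (log2 difference -0.98, SE 0.226, adjusted p = 0.072), while the proliferation marker Mki67 had a log2 difference of 0.24 (adjusted p = 0.565; chosen after its value was seen).

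RNA of other tissues differed between the hearts. Liver genes set flox 2, null 2 and null 3 apart: the 14 foregut and liver genes summed to 7.74, 197 and 23.4 RPKM in flox and 33.5, 1444 and 1044 RPKM in null. Afp, α-fetoprotein of fetal liver, stood at 1.42, 148 and 0.975 RPKM in flox and 12, 865 and 728 RPKM in null (log2 difference 4.73, SE 2.04, adjusted p = 0.214). Limma and voom called 0 of the 12 that were tested (median 1.74), 5 of these genes rose without null 1, and groups overlapped for all 12. At an unadjusted p under 0.05 limma put 4 higher and 0 lower, against 11.6% and 11.3% of all tested genes. Erythroid genes took 1.87, 5.29 and 1.81% of reads in flox and 4.37, 3.55 and 10.2% in null, and 1 of 17 rose. It was the globin gene Hbb-bs, from 47.9, 80.4 and 60.8 RPKM to 176, 210.4 and 491 RPKM (log2 change 2.09, SE 0.372, adjusted p = 0.0321), whose call ended without flox 1 (adjusted p = 0.135), flox 2 (0.0759), flox 3 (0.113) or null 2 (0.0618). Hba-a1 and its copy Hba-a2 held the same number of reads in all 6 libraries, and Hbb-b1 is a near-identical copy of Hbb-bs, so the values of single globin genes are uncertain.

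Of 12 tested macrophage and other blood cell genes 1 rose, Spi1, the transcription factor PU.1, from 0.268, 1.46 and 0.716 RPKM to 4.44, 5.04 and 6.21 RPKM (log2 change 2.22, SE 0.33, adjusted p = 0.0178), and its call ended without flox 3 (adjusted p = 0.0759), null 2 (0.057) or null 3 (0.0553). The 14 genes of this list summed to 47 to 70.9 RPKM in flox and 64.9 to 137 RPKM in null. H2-K1, a class I antigen-presenting molecule made by most cells, rose from 1.46, 1.63 and 1.16 RPKM to 7.65, 8.89 and 17.4 RPKM (log2 change 2.54, SE 0.293, adjusted p = 0.00659; chosen after its values were seen) and was called in each fit that left 1 library out.

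Transcripts of trophoblast and of the uterine lining formed another set that was higher in null, in a list drawn up after the values were seen and not counted as support for anything. Its 18 genes are placental prolactins, granzymes of uterine natural killer cells, the trophoblast genes Tpbpa and Plac1 and 2 X-linked Rhox genes, and they summed to 32.3, 19.9 and 9.59 RPKM in flox and 68.2, 102 and 67.1 RPKM in null. The 3 flox libraries had 4, 4 and 9 of the 18 at 0, and the null libraries had none. Of 14 tested, 5 rose and voom called 2 higher (median 1.71), every null library was above every flox library for 12 (13.9% of all tested genes), and 0 to 3 rose when 1 library was left out. Prl3b1, placental lactogen II, rose from 0.657, 0.418 and 0.434 RPKM to 2.62, 9.67 and 3.78 RPKM (log2 change 2.37, SE 0.401, adjusted p = 0.0279), and its call ended without flox 1 (adjusted p = 0.0912), flox 2 (0.104), flox 3 (0.104) or null 3 (0.0578). Prl8a2, a prolactin of decidua, was highest in null 2 at 23.1 RPKM and stood at 13.1, 2.44 and 0.124 RPKM in flox, so that flox 1 overlapped the null values of 12.3, 23.1 and 18 RPKM (log2 difference 2.60, SE 0.917, adjusted p = 0.154). Rhox5, Krt8, Krt18 and Krt19 are also made by trophoblast. The part of such RNA in their rises was not tested.

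**Figure D3:**
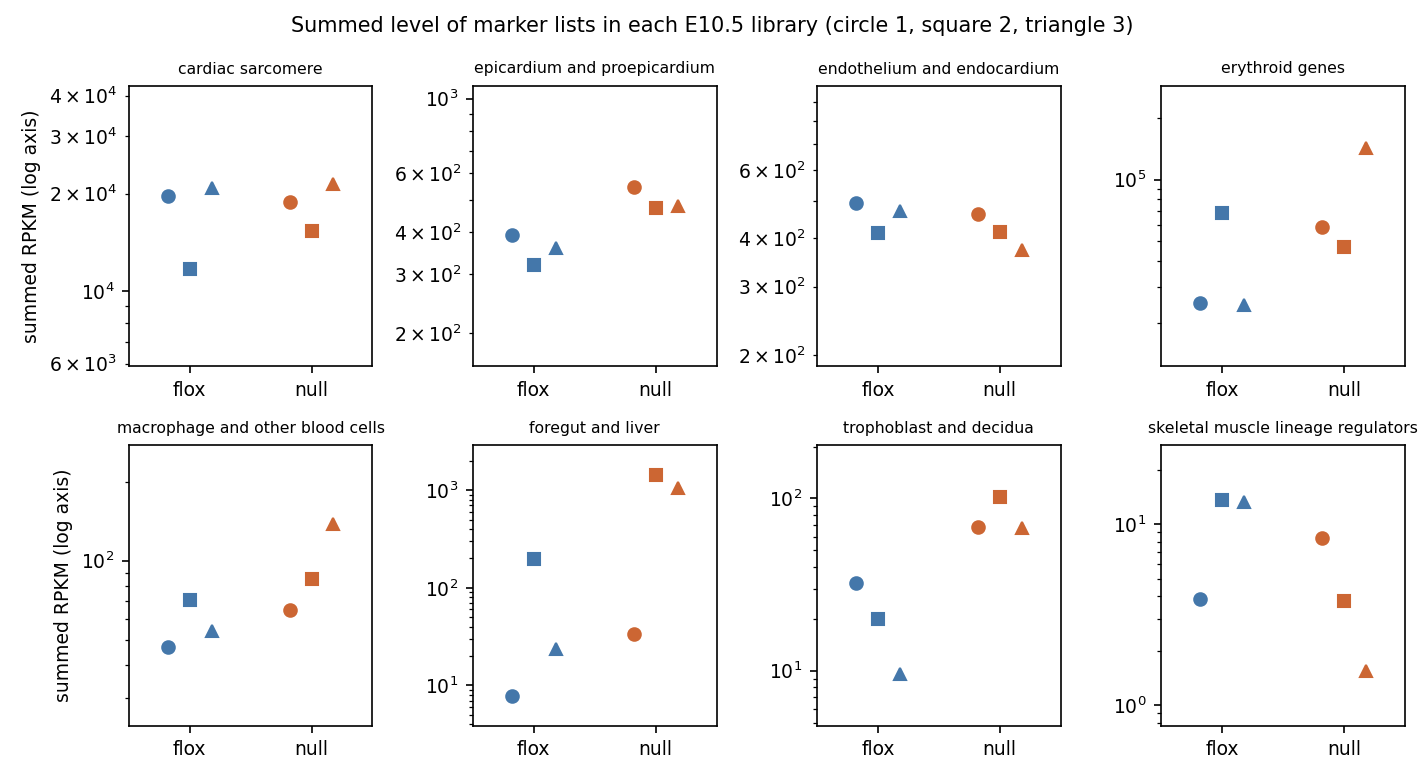
Summed RPKM of 8 marker lists in each E10.5 library, on log axes whose ranges differ between panels; circles, squares and triangles are replicates 1, 2 and 3 of flox (blue) and null (orange). Foregut and liver genes were high in null 2 and null 3 (1444 and 1044 RPKM) and, among flox, in flox 2 (197 RPKM), while skeletal lineage regulators were lowest in null 3.

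3 maternally expressed RNAs of the imprinted Dlk1-Meg3 region on chromosome 12 rose, in a set also chosen after the values were seen. Meg3 stood at 6.44, 13.2 and 8.93 RPKM in flox and 37.6, 36 and 28 RPKM in null (log2 change 1.82, SE 0.25, adjusted p = 0.014), and its call ended without flox 3 (adjusted p = 0.0706) or null 2 (0.0542). Mirg, a microRNA host transcript of the region, rose from 4.74, 4.6 and 5.27 RPKM to 14.2, 18.5 and 21.1 RPKM (log2 change 1.77, SE 0.177, adjusted p = 0.00369) and was called in each fit that left 1 library out. Rian rose from 31.3, 34.6 and 28.4 RPKM to 65.4, 77.7 and 47.3 RPKM (log2 change 0.98, SE 0.198, adjusted p = 0.0484), and its call ended without flox 1 (adjusted p = 0.193), flox 2 (0.116), flox 3 (0.175), null 1 (0.0793) or null 2 (0.0894). Dlk1, the paternally expressed gene of the region, had a log2 difference of 1.32 with overlapping groups (adjusted p = 0.123). Whether reads were counted by strand is not given, so for Rtl1, which lies antisense to a maternal transcript, reads of the 2 strands cannot be told apart (log2 difference 0.77, adjusted p = 0.118).

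Among germline genes 3 of 20 were tested, the others lying under the filter. Rhox5 was the rise, and Mov10l1, an RNA helicase of the piRNA pathway with a heart isoform, fell from 10.03, 5.66 and 8.21 RPKM to 2.21, 2 and 2.87 RPKM (log2 change -1.54, SE 0.233, adjusted p = 0.019). Its call ended without flox 1 (adjusted p = 0.0871), flox 3 (0.089) or null 2 (0.057).

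The other subunits of NuRD were measured as partners of CHD4. Of 18 tested genes of NuRD and related remodellers limma and voom called 0 (median -0.004). At an unadjusted p under 0.05, 2 were higher and 3 lower, against 11.6% and 11.3% of all tested genes. Hdac2, a deacetylase of the complex, stood at 128, 123 and 129.9 RPKM in flox and 90.5, 94.8 and 100.1 RPKM in null (log2 difference -0.42, SE 0.133, adjusted p = 0.136). Chd3, the paralog that can take the place of CHD4 in the complex, stood at 14.6, 18.4 and 17 RPKM in flox and 26, 24.4 and 18.4 RPKM in null, all null values above flox (log2 difference 0.44, SE 0.175, adjusted p = 0.189).

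**Figure D4:**
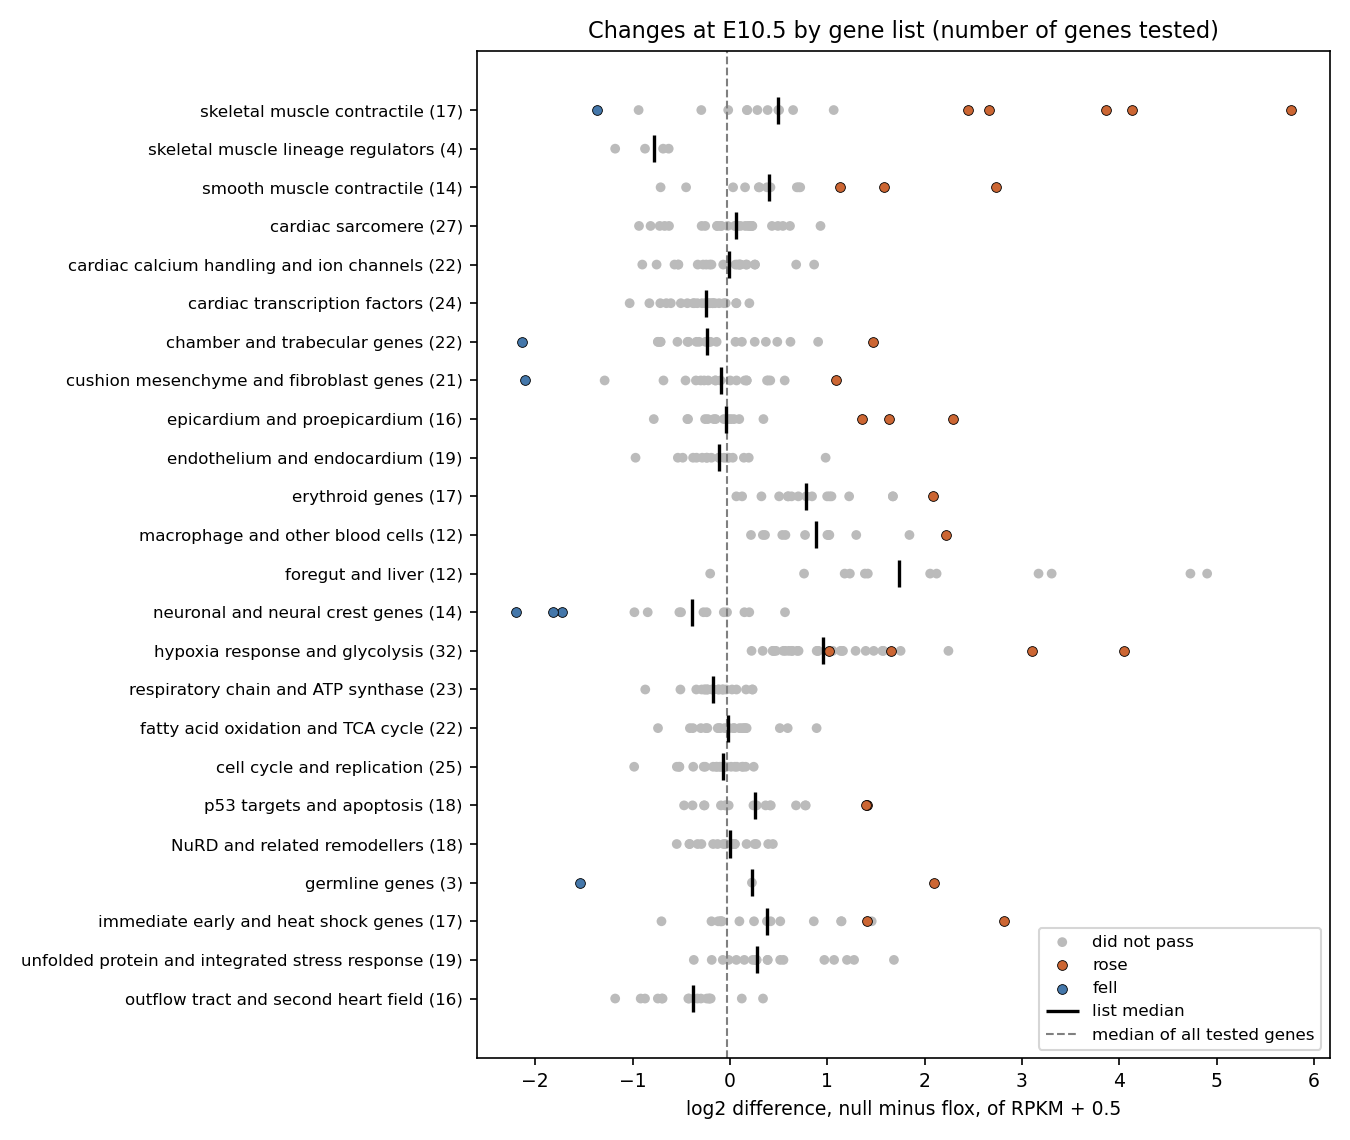
Log2 difference, null minus flox, of each tested gene in 24 gene lists (number tested in brackets); orange and blue points passed the test, grey points did not, black bars are list medians and the dashed line is the median of all tested genes (-0.03). The hypoxia and glycolysis list has its median at 0.96, while in the skeletal muscle contractile list 5 genes stand far to the right and 11 did not pass.

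At E9.5, with 5 flox and 5 null libraries, 937 of 13643 tested genes rose (6.87%) and 1405 fell (10.3%). Of the 249 genes that rose at E10.5, 239 were tested at E9.5, where 145 rose and 1 fell. These 145 are 58.2% of the E10.5 rises and 15.5% of the E9.5 rises. Of the 43 falls, 41 were tested at E9.5, where 26 fell and 0 rose, which is 60.5% of the E10.5 falls and 1.85% of the E9.5 falls. The 2 stages share no library. Per the labels, more RNA went into each library at E10.5 than at E9.5, and stage and library preparation cannot be told apart.

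The difference between the stages was tested in 1 fit of all 16 RNA libraries, and it passed for 542 of 13418 genes (4.04%): the change was more positive at E10.5 for 352 (2.62%) and more negative for 190 (1.42%). The count was 234 with array weights. Of 280 genes called at E10.5 with a value in this fit, 62 passed it. Of these 62, 56 had risen and 6 had fallen, and the choice of genes by their E10.5 call bears on which side of an equal change they lie. The log2 change of Atp2a1 was 2.23 in the E9.5 hearts and 3.87 a day later, a difference of 1.64 (adjusted p = 0.00399). For Acta1 the changes were 0.91 and 2.44 (difference 1.54, adjusted p = 0.029), and for Tnnt3 2.69 and 4.13 (difference 1.44, adjusted p = 0.0452). Cck went from 1.27 at E9.5 to 3.78 at E10.5 (difference 2.51, adjusted p = 0.0234). Tnnc2, Tnni2 and Myh11 rose at both stages, and their stage differences of 1.08, 0.85 and 0.29 did not pass (adjusted p = 0.0859, 0.189 and 0.553).

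Some glycolytic genes differed between the stages. For Gapdh the log2 difference was -0.56 in the E9.5 hearts and 1.02 a day later, and the stage difference of 1.58 passed (adjusted p = 0.0234). Aldoa, aldolase A, showed the same pattern (-0.18 and 0.89, stage difference 1.07, adjusted p = 0.0395), as did Pfkl (-0.11 and 1.01, stage difference 1.12, adjusted p = 0.0297). Of these genes only Pfkl was called at E10.5. In all, 5 of the 32 hypoxia and glycolysis genes passed the stage test, where 4.04% of all genes in that fit passed. Gapdh and Eno1 are among the 5, and their values are uncertain because of processed copies. Nkx2-5 fell at E9.5 (-1.45, adjusted p = 0.000389) and had a log2 difference of -0.61 at E10.5, and the stage difference of 0.85 did not pass (adjusted p = 0.109). Of 24 cardiac transcription factors 0 passed the stage test. Kif5c, a kinesin motor of neurons, rose at E9.5 (1.40) and had a log2 difference of -0.01 at E10.5 (stage difference -1.40, adjusted p = 0.0235).

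**Figure D5:**
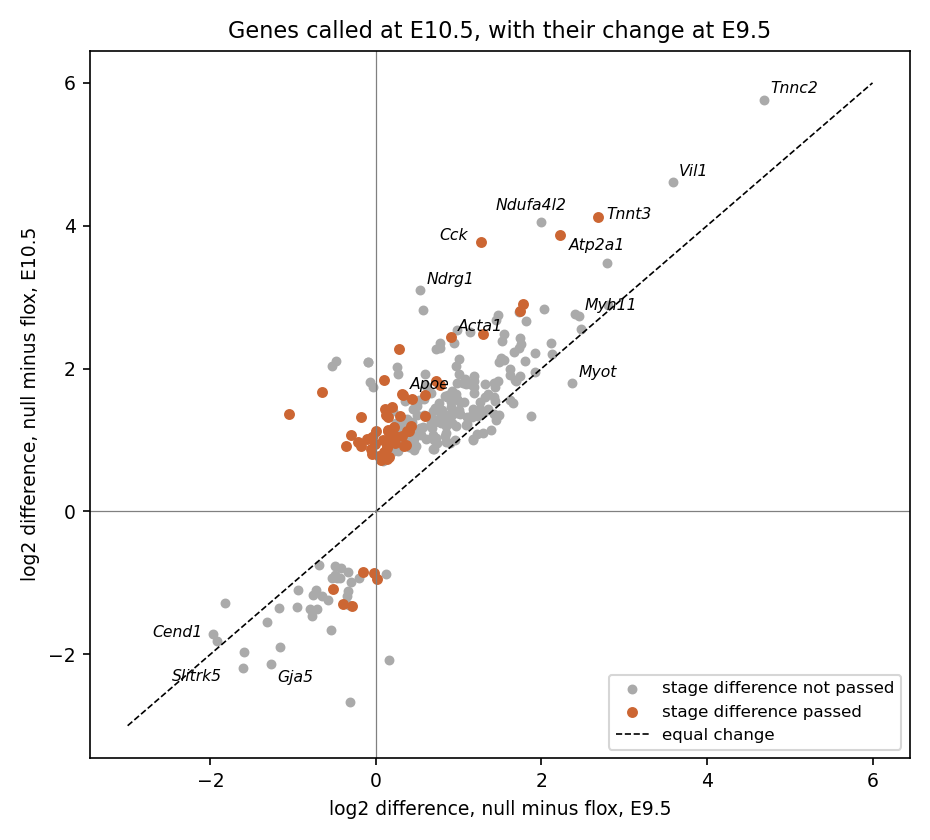
Log2 difference, null minus flox, at E9.5 (horizontal axis) and E10.5 (vertical axis) for genes called at E10.5 and present in the stage fit; orange points passed the test of the stage difference and the dashed line marks equal change. The orange points are 56 rises and 6 falls; only genes called at E10.5 are plotted, and that choice bears on which side of the line they lie.

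The authors' deposited table of this comparison lists 1357 genes, 932 higher and 425 lower in null. Of the calls made here 237 rises and 39 falls are in it with the same direction, and 0 with the opposite one. That is 94.5% of the calls here and 20.3% of the genes there. In the authors' deposited table Chd4 has a log2 ratio of control over null of 0.50 (SE 0.157, adjusted p = 0.022). It also lists Hopx, with a log2 ratio of control over null of 0.93 (adjusted p = 0.00144), and Pln (0.82, adjusted p = 0.00103), which did not pass here. Of the cardiac transcription factors it lists 3 as lower in null and 0 as higher. Of the outflow tract and second heart field genes it lists 2 as lower and 0 as higher.

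CHD4 binding in wild-type hearts at E10.0 was set beside the changes. The 3 deposited peak lists hold 84271, 60749 and 50232 peaks from 2 biological samples, and 22824 peaks of the first overlapped both others by at least 1 bp. Coordinates were found for 13618 of the 14100 tested genes (96.6%). A shared peak lay within 5 kb of either gene end for 131 of 244 genes that rose (53.7%; 95% Wilson interval 47.4 to 59.8%), for 19 of 41 that fell (46.3%; 32.1 to 61.3%) and for 8753 of 13333 not called (65.6%; 64.8 to 66.5%). The gap to genes not called depended on the setting: within 1 kb the shares were 32.8% (27.2 to 38.9%) for genes that rose and 54.9% (54.1 to 55.8%) for those not called, within 50 kb they were 86.1% (81.2 to 89.9%) and 86.6% (86.1 to 87.2%). With only peaks of the first list that both others overlapped over at least 50% of its length, the shares within 5 kb were 32.4% (26.8 to 38.5%) and 37% (36.2 to 37.8%). Genes with more RNA had a peak more often, and genes that rose were lower than others (median 5.12 against 8.65 RPKM). In the lowest of 5 equal bins by expression (0.5004 to 2.24 RPKM) the shares were 42.2% of 64 genes that rose and 41.7% of 2653 not called. In the highest bin (25.3 to 24934 RPKM) they were 62.5% of 40 that rose and 79.99% of 2679 not called. The intervals cover counting error only, and genes are not replicates.

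Distances varied between single loci. The promoters of Tpm2 and Nppb lay inside shared peaks, and the Cend1 start lay in a small one. Peaks ended 231 bp from the nearer end of Apoe and 102 bp from that of Slitrk5. For Tnni2 and Tnnt3 the nearest shared peaks were 11743 and 6184 bp from the nearer gene end, for Gja5 8952 bp and for Vil1 9774 bp. Ndrg1 had none nearer than 69817 bp.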

How the data were processed

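RNA of cardiac tissue was measured in 3 flox and 3 null libraries at E10.5 and 5 of each at E9.5. The tools named per the submitters' processing notes include MACS2, DESeq2 1.6.3, HTSeq 0.6.2 and Bowtie 1.2.0, besides SAMtools 1.6. The notes also name bedtools 2.25.0 and the mm10 genome. The role of each tool and the strand setting of the counting are not given in the sources used here. RPKM values per gene were deposited by the authors, with gene length, in 1 table per stage. The authors' deposited comparison table gives log2 ratios of control over null with adjusted p-values, and its mean signal column was not used for tests. The deposited CHD4 peak lists carry the authors' score per peak, used only to describe peaks. The deposited columns are named WT and KO where the labels' titles say flox and null. They were matched by stage, replicate number and that reading of the names, on which every direction rests, and 0 were unmapped.

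RPKM times gene length gave whole reads for 100% of values (within 0.01), so depth could be read from the table. The test was limma 3.58.1 (R 4.3.3, lmFit and eBayes with trend) on log2(RPKM + 0.5) where the mean over the libraries reached 0.5 RPKM, two-sided, with Benjamini-Hochberg adjustment over all tested genes and a threshold of 0.05. A fold change on this scale understates the change of low genes. Stages were compared by the genotype by stage term in a fit of all 16 RNA libraries. With 3 against 3 libraries an exact permutation test cannot go below 0.1, so none was used. Tables and figures were made with Python 3.11.15, numpy 2.4.6, pandas 2.3.3 and matplotlib 3.10.9. Only the limma fit of 3 against 3 libraries was tested on simulated reads. These had the same spread beyond counting noise for all genes and no outlying library, unlike the data here. Gene and promoter coordinates are those of RefSeq GRCm38.p6, the assembly of mm10.

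The genes, lists and tests were chosen with earlier results of these data known, and 2 lists (trophoblast and decidua, imprinted Meg3 cluster) after the values were seen. Named genes were Chd4, among called genes with separate groups and at least 1 RPKM in a group the top 20 rises and top 15 falls by size, from each list the 6 with the lowest p at most, the 5 largest stage differences in each direction, and the members of the erythroid, foregut and liver, and hypoxia lists. Unannotated, small RNA and predicted genes were left out of the largest changes. Some genes that the rule returned are not reported here. Genes named outside this rule were chosen after their values were seen, which is said beside them or holds for Apoe, Gas6, Igfbp2, Meg3, Mirg, Rian, Hbb-b1, Myod1, Pax7 and the prolactin genes. Alternatives were other pseudocounts, filters, scalings and weights, voom on the recovered reads, covariates, a replicate block and leaving out libraries. The fits with the foregut and liver level, and without the 3 libraries high in liver genes, were chosen after seeing the data. Replicates are separate samples by the labels, which do not say whether they came from separate litters.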

Additional observations from a re-analysis of the deposited data

Results flagged for a closer look

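The change between null and flox hearts differed between E10.5 and E9.5 for 26 of 207 named genes, by the genotype by stage term of a limma fit over 16 libraries (adjusted p under 0.05). The rule for named genes takes the 5 largest differences in each direction from genes that passed this same test. Those were bound to pass, so the count of 26 is not a result about the named genes. Of all 13418 genes in the fit 4.04% passed. Values are the E10.5 change minus the E9.5 change on the log2 scale.

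The difference was negative for 8 of them. It was -1.40 for Kif5c, a neuronal kinesin, and -1.28 for Neto2, an auxiliary subunit of glutamate receptors. It was -1.06 for Lix1, -1.05 for Mob1a and -0.95 for Rdh10, a retinol dehydrogenase of retinoic acid synthesis. Cyclin E2 (Ccne2) differed by -0.60, and the chromatin genes Chd1 and Hdac2 by -0.51 and -0.37.

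Among muscle and epithelial genes the difference was positive, at 0.98 for Tpm2, 1.04 for Krt8, 1.04 for the calcium channel gene Cacna1h, 1.44 for Tnnt3, 1.54 for Acta1 and 1.64 for Atp2a1. The glycolytic genes differed by 0.70 for Hk1, 1.07 for Aldoa, 1.12 for Pfkl, 1.23 for Eno1 and 1.58 for Gapdh. Values of Eno1 and Gapdh are uncertain because of processed copies. The rest were 1.06 for Cd2, 1.12 for Aoc3, 1.64 for Cda, 1.67 for Sct, 1.76 for Rpph1, 2.41 for Tuba1c and 2.51 for Cck. Stage and library preparation cannot be told apart in these values.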

How the results depend on the processing

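Under the alternatives run no named gene passed in the opposite direction, and rises outnumbered falls among all called genes in every E10.5 fit. Differences near 0 can change sign with the scaling. Small counts within lists also moved. Of 27 cardiac sarcomere genes voom called 1 higher and 0 lower, quantile normalization gave 0 and 1, and array weights 1 and 3. The median log2 change of all tested genes was -0.03 and turned to 0.01 when rescaled without erythroid and the 10 most abundant genes. Against 292 genes changed at E10.5 (249 genes that rose at E10.5 and 43 genes that fell at E10.5), no filter on low values gave 162 (143 and 19) and array weights 1426 (1033 and 393). Adding a covariate gave 65 for the erythroid level (59 and 6), 79 for sex (71 and 8) and 9 for the epicardial level (9 and 0). Of those chosen after seeing the data, the foregut and liver level gave 156 (146 and 10), and leaving out the 3 libraries high in liver genes gave 541, of which 205 fell. That last fit has 1 null library, assumed to vary like the flox libraries. Leaving out 1 library gave 62 to 356 changed genes, 55 to 314 that rose and 7 to 42 that fell. The other pseudocounts, scalings, the stricter filter, robust eBayes and voom stayed within 1.5 times. The stage difference passed for 234 genes with array weights, against 542.

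Replicate numbers were tested as pairs: deviations of same-numbered libraries correlated at 0.0509, 0.106 and -0.0299 over genes, so they share only a number. With the replicate block 269 genes changed at E10.5, of which 219 were among the 292, and the stage difference passed for 1384. Depth limits genes under 0.5 RPKM, which were not tested.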
